A study of Mus musculus with 11 samples.

Results

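The cadherin, claudin and connexin genes encode the adhesion proteins of adherens junctions, the sealing strands of tight junctions and the channels of gap junctions. Members were all probes whose annotated symbol was Cdh, Cldn, Gja, Gjb or Gjc followed by digits only, with the endothelial cadherin gene Cdh5 left out. This gave 95 probes for 53 genes, of 46627 probes and 17711 singly named genes on the array. There were 21 cadherin genes with 48 probes, 20 claudin genes with 29 probes and 12 connexin genes with 18 probes.

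Total RNA of mouse induced pluripotent stem cells (iPSC) and of their feeder cells was measured on Illumina BeadChip arrays. The strain was C57BL/6 throughout, per the labels. The 2 feeder arrays held embryonic fibroblasts expressing LIF (leukemia inhibitory factor), which the labels call MSTO. The 3 feeder-free arrays held iPSC kept in 1000 units/ml LIF and 15% FBS. The 3 on-feeder arrays held iPSC grown on a feeder layer and lifted off it mechanically. According to the growth protocol that layer consisted of SNL76/7 cells treated with mitomycin C. How MSTO and SNL76/7 relate is not stated in the labels, so every feeder share and mixture below assumes that both were alike. The other 3 samples were mixtures computed by the authors from 92% feeder-free and 8% feeder signal. The labels number the replicates without saying whether they were separate cultures, so the p-values measure only the spread between these samples, which may be technical.

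Cadherins bind their like on the neighbouring cell through calcium-dependent extracellular repeats, and the classical members are tied to actin by catenins. Claudins span the membrane and set how tightly a tight junction seals and which ions pass. Connexins assemble into hexameric half-channels that dock between cells and let small molecules through. Mouse pluripotent cells are known to grow as compact colonies held together by E-cadherin, and fibroblasts to carry N-cadherin and other mesenchymal cadherins.

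Detected probes numbered 13581 to 14574 per array in feeder cells, 17307 to 18759 in feeder-free iPSC and 17630 to 19043 in iPSC on feeder cells. Pluripotency and fibroblast markers followed the labels. The summed normalized signal of 9 pluripotency markers was 228.7 to 395.2 on feeder arrays, 21581 to 22485 feeder-free and 19379 to 20822 on feeder. The summed signal of 10 fibroblast markers was 17071 to 19615 on feeder arrays, 982.8 to 1025.7 feeder-free and 2578.8 to 2824.7 on feeder. Of 14 fibroblast markers on the array, Col1a2, Col3a1, Lum and Postn were not detected on any array, feeder arrays included. Markers of other lineages were also higher in iPSC. The sum of 7 primitive endoderm markers was 1045 to 1112.7 on feeder arrays, 4442 to 4756.7 feeder-free and 3435.1 to 4219.4 on feeder. For 5 trophoblast markers it was 399.7 to 406.9, 1466.1 to 1679.1 and 1484.5 to 1872.2. Sums of hematopoietic and endothelial markers were higher in iPSC too, and that of 3 neural markers was not. In such bulk RNA, fewer cells of a type and less RNA per cell cannot be told apart.

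A probe was tested where it was detected on every array of at least 1 group, and the brightest such probe stood for its gene. In this way 19 of the 53 members were tested, namely 8 cadherins, 8 claudins and 3 connexins. The other 34 genes had no such probe. Of these, 28 were not detected on any array (11 cadherins, 9 claudins and 8 connexins), and Cdh8, Cdh19, Cldn1, Cldn13, Cldn19 and Gjb2 were detected on some arrays only. Because a gene could enter through the group where it was high, the 19 are not a sample of all members.

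The first comparison set feeder-free iPSC against feeder cells. Of the 19 tested genes 18 differed, 11 higher and 7 lower in iPSC, where 81.9% of all 10058 genes tested differed (40.8% higher and 41.1% lower). The arrays of the groups did not overlap for 18 members, as for 87.9% of all genes. The members' median difference was 0.71 log2 units, against -0.01 over all genes. Among cadherins 4 were higher and 3 lower, claudins split 4 and 4, and all 3 connexins were higher. All levels below are normalized log2 signals, and a level is compared between groups for the same probe only; differences are in log2 units unless given as folds.

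Cdh1, E-cadherin, is the classical adhesion molecule of epithelia and of the early embryo. Its level was 4.79 and 4.84 on the feeder arrays, 7.69, 7.63 and 8.08 on the feeder-free arrays and 7.32, 8.11 and 8.00 on the on-feeder arrays. It was not detected on either feeder array, and the iPSC arrays of both kinds lay far above and overlapped each other. The difference from feeder cells was at least 5.03-fold in feeder-free iPSC (log2 difference 2.98, SE 0.21, adjusted p = 3.78e-08 by limma) and at least 5.07-fold in iPSC on feeder cells. Between the iPSC cultures it was 0.01 (SE 0.19, adjusted p = 0.975).

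Cdh3, P-cadherin, is a close relative of E-cadherin and lies next to it on chromosome 8. Its level was 4.50 and 4.54 on the feeder arrays, 7.40, 7.23 and 7.64 feeder-free and 6.72, 6.96 and 6.87 on feeder. All 3 on-feeder arrays lay below all 3 feeder-free arrays. Cdh3 was at least 3.89-fold higher in feeder-free iPSC than in the feeder cells (2.90, SE 0.13, adjusted p = 6.79e-10). On feeder cells it was lower than in feeder-free iPSC, by 1.49-fold (-0.57, SE 0.12, adjusted p = 0.00592), a call that ended with median scaling (-0.51, adjusted p = 0.203). Its other 2 kept probes read -0.84 (SE 0.14) and -0.51 (SE 0.11), so all 3 probes of the gene gave a lower level on feeder cells.

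Cdh2, N-cadherin, is the main classical cadherin of mesenchymal and neural cells. Its level was 6.32 and 6.46 on feeder arrays, 5.40, 5.48 and 5.65 feeder-free and 5.66, 5.79 and 5.50 on feeder. It was detected on every array, highest on the feeder arrays, and the iPSC cultures overlapped. The level of Cdh2 in feeder-free iPSC was below that in feeder cells (-0.88, SE 0.12, adjusted p = 2.64e-05), and 0.14 apart between iPSC cultures (SE 0.11, adjusted p = 0.400). With median scaling the difference from feeder cells was -0.28 (adjusted p = 0.204). The other 2 kept probes of Cdh2 read -0.87 and -0.17 against feeder cells, the latter with an adjusted p of 0.343, and -0.19 and 0.35 between iPSC cultures, neither past the test.

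Cdh13, T-cadherin, lacks the transmembrane and cytoplasmic parts of the classical members and is held to the membrane by a lipid anchor. Its level was 8.05 and 8.12 on feeder arrays, 4.86, 4.71 and 4.71 feeder-free and 5.88, 5.54 and 5.50 on feeder. It was detected on both feeder arrays and all on-feeder arrays, and on no feeder-free array. Its feeder level was at least 8.51-fold the feeder-free level (-3.32, SE 0.13, adjusted p = 1.59e-10). In iPSC on feeder cells it was at least 1.56-fold higher than feeder-free (0.88, SE 0.12, adjusted p = 0.000271). Its other kept probe, dimmer, read 0.21 for the same comparison (SE 0.12, adjusted p = 0.273) and was detected on 1 on-feeder array.

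Cdh26 was the other cadherin with a high feeder level. Its level was 7.65 and 7.60 on feeder arrays, 4.69, 4.57 and 4.52 feeder-free and 4.65, 4.70 and 4.69 on feeder. It was detected on both feeder arrays and on none of the 6 iPSC arrays. This rests on 1 of its 2 probes, the other not being detected on any array. Its level in feeder cells was at least 6.19-fold that in feeder-free iPSC (-3.04, SE 0.10, adjusted p = 4.75e-11) and at least 6.32-fold that in iPSC on feeder cells. Between the iPSC cultures the difference was 0.09 (SE 0.09, adjusted p = 0.544).

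The remaining tested cadherins were dim. Cdh15, M-cadherin, known from muscle precursors, was detected on all iPSC arrays and no feeder array. It was 0.71 higher in feeder-free iPSC than in the feeder cells, a call that ended with median scaling over kept probes (0.058, adjusted p = 0.711). Cdh6, K-cadherin, was detected on the feeder-free arrays only and was 0.64 higher, a direction that turned with median scaling over kept probes. Cdh23, the cadherin of hair-cell tip links, differed by -0.15 (adjusted p = 0.387) and was the 1 tested member that did not pass. For Cdh15 and Cdh6 no fold is given, because their iPSC level lay below the lowest detectable signal of the feeder arrays.

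**Figure D1:**
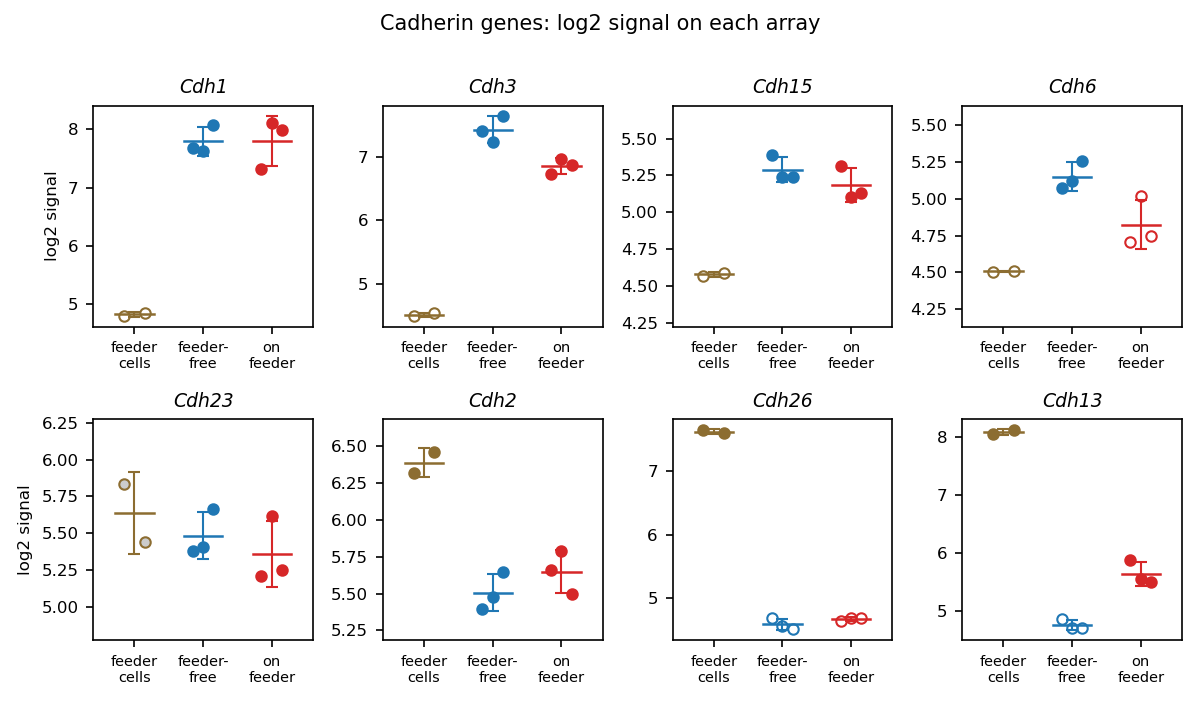
Normalized log2 signal of the 8 tested cadherin genes on the 2 feeder, 3 feeder-free and 3 on-feeder arrays. Each point is an array, the line is the group mean and the bar its SD; filled points mark groups detected on all arrays, grey points on some and open points on none. Cdh1 and Cdh3 are high in iPSC, Cdh13 and Cdh26 in feeder cells, and only Cdh13 of these 2 lies higher on feeder than feeder-free.

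Claudin genes gave the widest difference of the set. Cldn4, a claudin of tight epithelia, had a level of 4.96 and 5.79 on the feeder arrays, 10.25, 10.44 and 10.17 feeder-free and 9.68, 9.76 and 9.63 on feeder. It was detected on 1 of the 2 feeder arrays, and all on-feeder arrays lay below all feeder-free arrays. The difference from feeder cells was 4.91 in feeder-free iPSC (SE 0.19, adjusted p = 1.59e-10) and 4.32 in iPSC on feeder cells. Its size rests on a feeder level that was only partly measured: with feeder array 1 raised to its lowest detected signal, Cldn4 was 26.0-fold higher in feeder-free iPSC and 17.2-fold higher on feeder cells. On feeder cells it was 1.51-fold lower than feeder-free (-0.59, SE 0.17, adjusted p = 0.0329). This call ended when any 1 of 5 iPSC arrays was left out (adjusted p from 0.0549 to 0.116; all but on-feeder array 2), and with median scaling (-0.55, adjusted p = 0.217).

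Promoters of 3 genes are shown to set the 2 members with a listed promoter that were lower on feeder cells, Cldn4 and Gja4, beside Cldn3, the neighbour of Cldn4 on chromosome 5. They are RefSeq sequences of 300 bases, 250 before the start site and 50 from it, written 5′ to 3′ along the gene. Capitals mark the E-box CAGGTG, the GC box GGGCGG and the AP-1 type motif TGANTCA, each searched on both strands.
Cldn4 promoter (GRCm38.p6, chr5:134946885-134947184, minus strand): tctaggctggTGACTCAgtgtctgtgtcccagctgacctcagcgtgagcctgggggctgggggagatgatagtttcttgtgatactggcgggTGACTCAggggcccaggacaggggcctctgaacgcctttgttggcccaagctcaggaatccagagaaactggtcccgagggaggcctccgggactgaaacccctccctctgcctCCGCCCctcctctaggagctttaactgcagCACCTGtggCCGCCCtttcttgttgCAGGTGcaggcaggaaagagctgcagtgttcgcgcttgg
Cldn3 promoter (GRCm38.p6, chr5:134985964-134986263, plus strand): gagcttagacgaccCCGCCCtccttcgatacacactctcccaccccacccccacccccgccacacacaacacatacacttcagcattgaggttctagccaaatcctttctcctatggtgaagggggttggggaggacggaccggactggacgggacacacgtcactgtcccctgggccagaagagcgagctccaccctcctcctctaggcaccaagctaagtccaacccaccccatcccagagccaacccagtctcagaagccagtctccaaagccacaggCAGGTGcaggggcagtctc
Gja4 promoter (GRCm38.p6, chr4:127313990-127314289, minus strand): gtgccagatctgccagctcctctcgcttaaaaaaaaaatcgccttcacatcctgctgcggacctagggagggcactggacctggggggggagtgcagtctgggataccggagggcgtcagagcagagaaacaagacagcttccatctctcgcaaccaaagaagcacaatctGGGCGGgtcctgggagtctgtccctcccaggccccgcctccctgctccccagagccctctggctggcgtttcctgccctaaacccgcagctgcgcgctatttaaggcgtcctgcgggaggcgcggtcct
Cldn4 held each motif at 2 places, Cldn3 held 1 E-box and 1 GC box, and Gja4 held 1 GC box. Over 32851 promoters of the same length, 20.2% held the E-box, 35.7% the GC box and 7.81% the AP-1 type motif. The table listed 16 promoters for 12 of the 19 tested members, of which 3, 10 and 2 held them in that order. A match here is a run of letters and was not tested as a binding site.

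Cldn3, which like Cldn4 is a receptor for a clostridial enterotoxin, was 0.90 higher in feeder-free iPSC than in the feeder cells, at least 1.10-fold (adjusted p = 2.46e-05), a call that ended with median scaling over kept probes (0.31, adjusted p = 0.0932). Between iPSC cultures it differed by -0.04 (SE 0.11, adjusted p = 0.840). Cldn7, an epithelial claudin, was at least 1.23-fold higher (1.43, adjusted p = 4.08e-06), and Cldn5, the claudin of the blood-brain barrier, was 0.79 higher. In feeder cells the signal was higher for Cldn12 (-1.31, SE 0.17), Cldn10 (-1.23), Cldn9 (-0.90) and Cldn23 (-0.48), of which Cldn23 turned with median scaling (0.058). The same scaling ended the call of Cldn9 (-0.37, adjusted p = 0.105) and left Cldn12 at -0.82 and Cldn10 at -0.63. Cldn10 rests on 1 of its 6 probes, the others not being detected on any array. None of the 7 tested claudins other than Cldn4 passed the test between the iPSC cultures. The nearest to the threshold was Cldn12, at 0.44 (SE 0.15, adjusted p = 0.0676).

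All 3 tested connexins read higher in iPSC than in feeder cells, but the on-feeder difference of Gja4 is not resolved. Gja4 was not detected on either feeder array. Its mean on-feeder level of 5.09 lay below the lowest detected signals of those arrays, 5.38 and 5.56. With median scaling over kept probes both Gja1 calls against feeder cells ended. The difference of Gja1 was then 0.00 in feeder-free iPSC and 0.16 on feeder cells (adjusted p = 0.997 and 0.306 by limma). The on-feeder difference of Gja4 was -0.24 with that scaling. Gja1 encodes the main gap junction protein of pluripotent cells and fibroblasts. Its level was 11.44 and 11.35 on feeder arrays, 12.19, 12.07 and 12.07 feeder-free and 12.20, 12.23 and 12.49 on feeder. It was detected on every array, and the feeder arrays lay lowest. The difference from feeder cells was 0.71 in feeder-free iPSC (SE 0.12, adjusted p = 0.000109) and 0.91 in iPSC on feeder cells. The difference between iPSC cultures, 0.19 (SE 0.11, adjusted p = 0.224), did not pass the test, although their arrays did not overlap.

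Gjc1 encodes a connexin that forms channels in early heart and smooth muscle. Its level was 6.74 and 6.94 on feeder arrays, 7.83, 7.69 and 7.27 feeder-free and 7.79, 7.07 and 7.98 on feeder. The iPSC cultures overlapped and spread widely, with an SD of 0.48 on feeder. Only 1 of the 3 probes of Gjc1 was kept, and the others were not detected on any array. Gjc1 was 0.76 higher in feeder-free iPSC than in the feeder cells (SE 0.23, adjusted p = 0.00964), a call that ended without feeder array 1 (0.65, adjusted p = 0.0667), and 0.02 apart between iPSC cultures.

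Gja4 is best known from endothelium and from the channels between oocyte and granulosa cells. Its level was 4.67 and 4.69 on feeder arrays, 5.63, 5.58 and 5.51 feeder-free and 5.24, 4.88 and 5.16 on feeder. It was detected on all feeder-free arrays, 2 on-feeder arrays and no feeder array, with no overlap between any 2 groups. It was at least 1.08-fold higher in feeder-free iPSC than in the feeder cells (0.89, SE 0.12, adjusted p = 2.18e-05). On feeder cells it was 1.40-fold lower than feeder-free (-0.48, SE 0.11, adjusted p = 0.00988), a call that ended with median scaling (-0.50, adjusted p = 0.212). The summed signal of 6 endothelial markers was 1258.9 to 1386 feeder-free and 1039.3 to 1208.3 on feeder, with Tie1 not detected in iPSC. Of the 6, 2 were lower (Esam and Tek) and 0 higher, 33.3% where 18.5% of all genes passed and 8.46% were lower. Eng (-0.47), Pecam1 (-0.11), Kdr (-0.08) and Emcn (0.01) did not pass. The part of these markers in the Gja4 result was not tested.

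**Figure D2:**
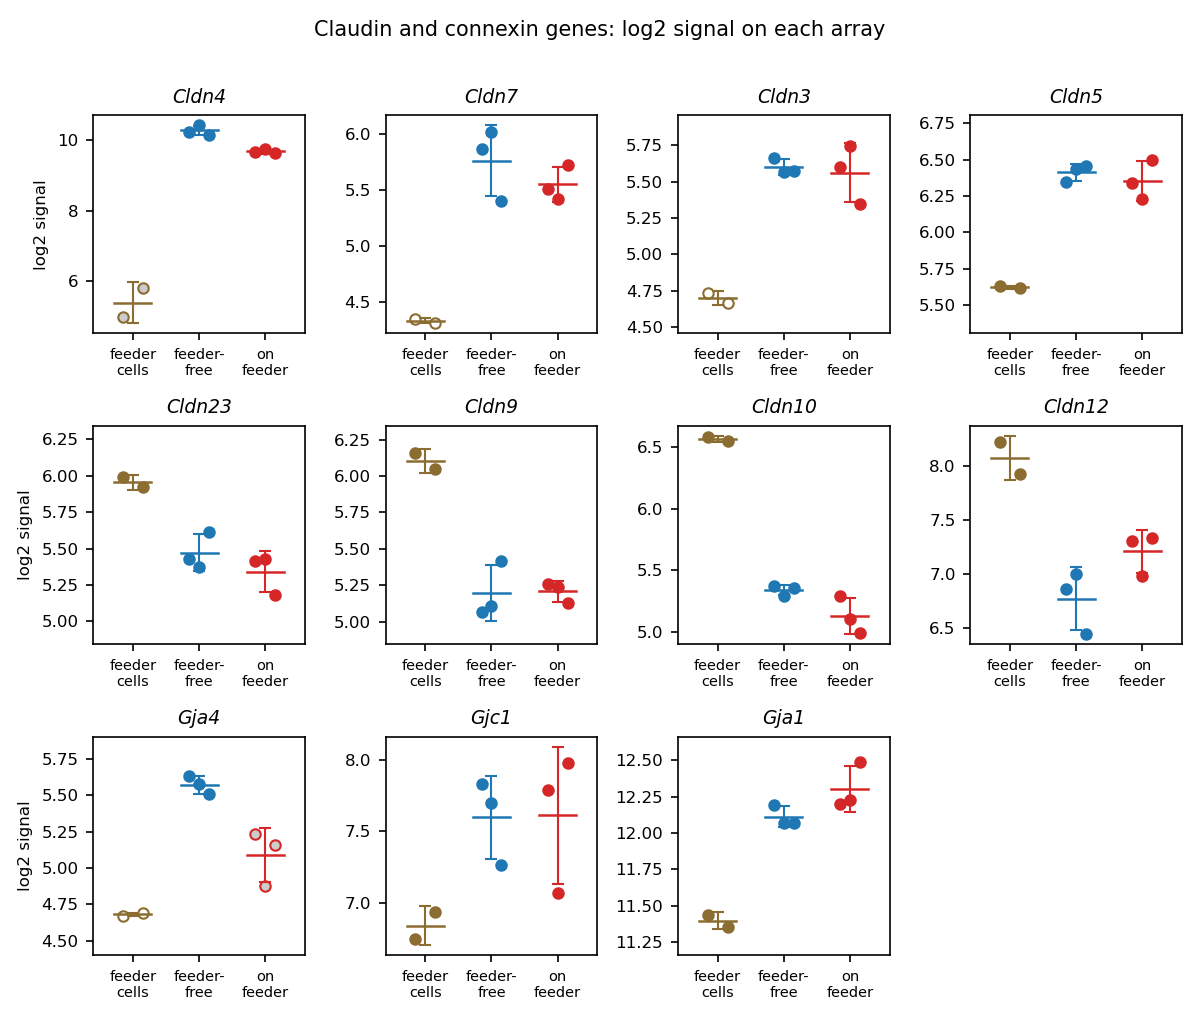
Normalized log2 signal of the 8 tested claudin and 3 tested connexin genes by array, drawn as for the cadherins (line, mean; bar, SD; filled, grey and open points for groups detected on all, some or no arrays). Cldn4 spans the widest range, and Cldn4 and Gja4 lie lower on feeder than feeder-free without overlap.

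The comparison of iPSC on feeder cells with feeder-free iPSC addresses what the feeder layer changes. The amounts of LIF and FBS are given for the feeder-free medium alone, so effects of medium, harvest and feeder cells cannot be told apart. Of the 19 members 4 passed, 1 higher (Cdh13) and 3 lower (Cdh3, Cldn4 and Gja4), which is 21.1% where 18.5% of all genes passed (10% higher and 8.46% lower). The count is thus near the background, and with median scaling 1 member passed higher and 0 lower. Arrays of the groups did not overlap for 7 of the 19 members, where 35.8% of all genes did not. Differences ran from -0.59 to 0.88 with a median of -0.06, against -0.02 over all genes. Of 10 fibroblast markers 6 were higher and 0 lower on feeder cells, and of 7 primitive endoderm markers 1 was higher and 4 lower, and their part in these differences was not tested.

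Feeder signal carried into the on-feeder samples was gauged as the share of the feeder excess over feeder-free signal that remained on feeder cells. Over 228 feeder-specific probes the median share was 4.52%, and the middle 50% of probes ran from 2.03% to 8.93%. Cdh13 had 13%, 7.97% and 7.34% on the 3 on-feeder arrays. Its mean of 9.45% lay above that range. Without on-feeder array 1, the highest of the 3, the mean was 7.66%, inside the range. The dimmer kept probe of Cdh13, detected on 1 on-feeder array, had a measured mean of 6.00%. This became 13.6% when its on-feeder signals were raised to the lowest detected level. That probe therefore does not place the share inside or outside the range. Cdh26 was below detection on every iPSC array, and its measured mean of 0.868% became 4.13% when its on-feeder signals were raised to the lowest detected level, so its share is not resolved from that range. The other 5 members higher in feeder cells had feeder levels 1.40 to 2.46 times the feeder-free level, and their mean shares ran in both directions. They were 23.9% for Cldn12, 12.4% for Cdh2, 0.124% for Cldn9, -9.88% for Cldn10 and -21.8% for Cldn23.

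**Figure D3:**
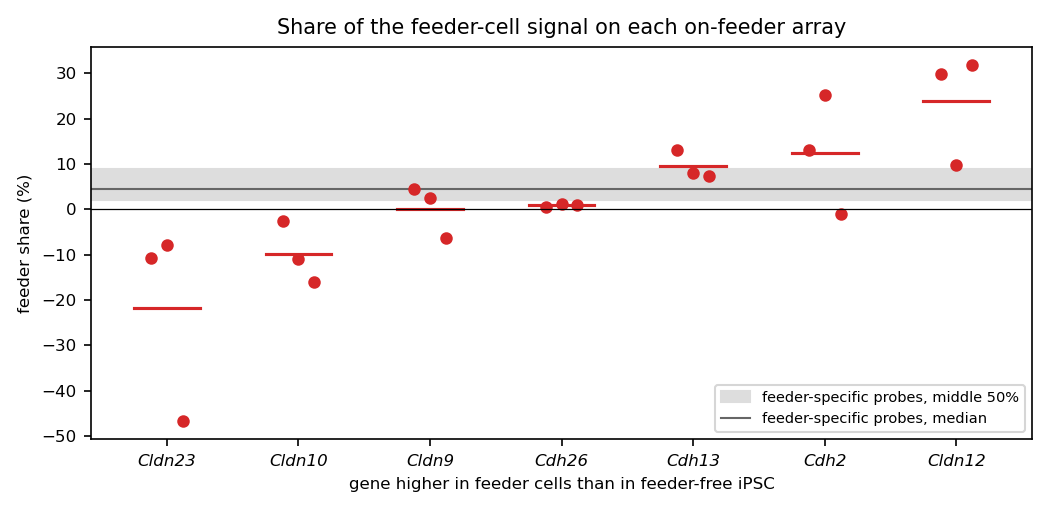
Share of the feeder signal, in percent, that remained in iPSC on feeder cells for members lower in iPSC; red points are the 3 on-feeder arrays, and the grey band and line are the middle 50% and the median of 228 feeder-specific probes. Cdh13 lies at 7.34% to 13%; the points of Cdh26 are signals below detection, and those of Cldn10 and Cldn23 lie below 0.

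The in silico mixtures give the level that 8% feeder signal alone would produce. They are built from the feeder-free and feeder arrays and so share them with the comparisons above. The median share of 4.52% over the 228 feeder-specific probes was taken from normalized signals. The 8% of the mixtures is a weight on signals before normalization, so the 2 percentages cannot be set against each other. Of 10 fibroblast markers 1 was higher and 1 lower on feeder cells than in the mixtures, with a median difference of 0.03. Against the mixtures 4 of 19 members passed, 0 higher and 4 lower, where 11% of all genes passed, 5.68% higher and 5.32% lower. Arrays did not overlap for 8 members (33.8% of all genes). The 4 were Cdh3, Cdh26, Cldn4 and Gja4.

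Cdh26 stood at 5.11, 5.06 and 5.09 in the mixtures and at 4.65, 4.70 and 4.69 on the on-feeder arrays of the same fit. Its on-feeder level, not detected on any array, was at least 1.06-fold lower (-0.41, SE 0.09, adjusted p = 0.0184). Cdh26 is high in feeder cells, and whether the on-feeder samples held a smaller feeder share than the mixtures was not tested. Cdh13 stood at 5.40, 5.37 and 5.46 in the mixtures and at 6.05, 5.66 and 5.61 on feeder. Its arrays did not overlap, but the difference of 0.36 did not pass the test (SE 0.12, adjusted p = 0.0841).

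Cldn4 stood at 10.17, 10.33 and 10.04 in the mixtures and at 9.72, 9.80 and 9.67 on feeder (-0.45, SE 0.10, adjusted p = 0.0239). Gja4 stood at 5.70, 5.63 and 5.53 against 5.31, 4.90 and 5.22 (-0.47, SE 0.12, adjusted p = 0.0333). Cdh3 stood at 7.46, 7.28 and 7.64 against 6.91, 7.14 and 7.05 (-0.43, SE 0.12, adjusted p = 0.0444). For these 3 genes every on-feeder array lay below every mixture. Leaving out 1 array ended each call: that of Cdh26 without feeder-free array 2 or 3 or on-feeder array 1, of Cldn4 without feeder-free array 1 or 2 or on-feeder array 1 or 3, of Gja4 without any feeder-free array or on-feeder array 3, and of Cdh3 without any of these arrays but on-feeder array 2. Adjusted p then ran from 0.0510 to 0.159, and 0 to 5 members were lower. Cdh1 (0.13, adjusted p = 0.693) and Gja1 (0.23, adjusted p = 0.199) did not pass.

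**Figure D4:**
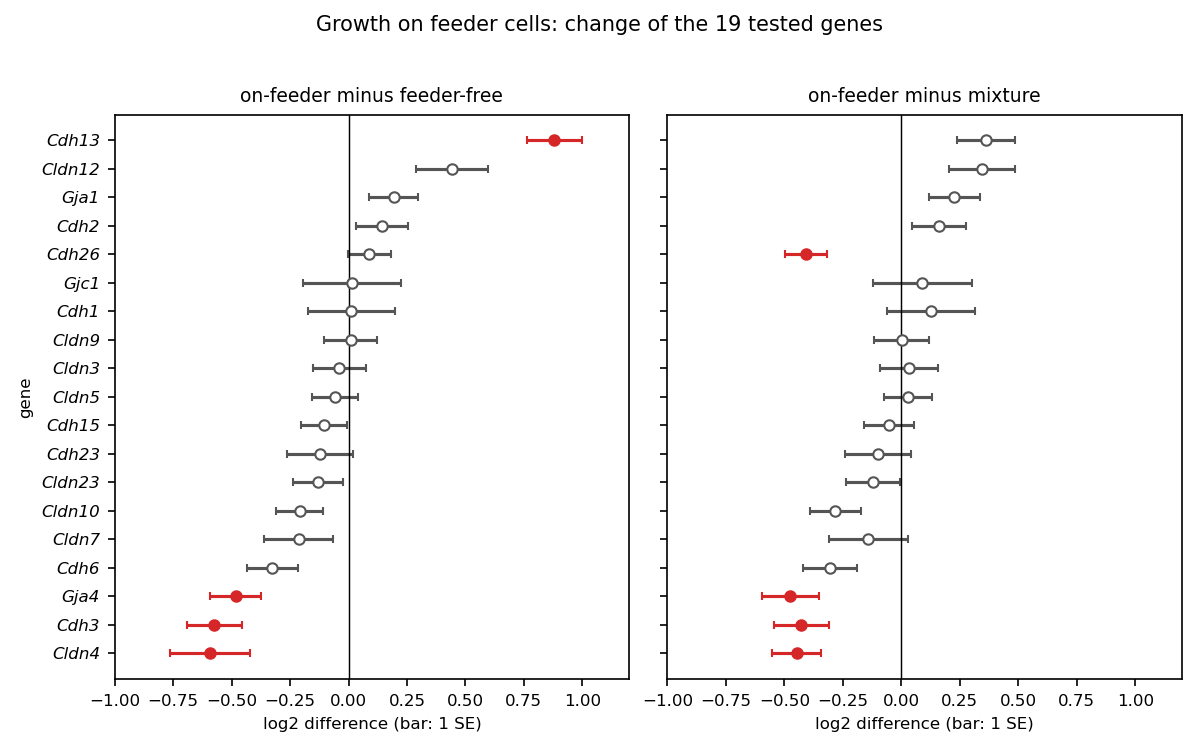
Log2 difference of each of the 19 tested members for iPSC on feeder cells minus feeder-free iPSC (left) and minus the in silico mixtures (right); points are differences, bars 1 SE, and red filled points passed an adjusted p of 0.05. On the left Cdh13 lies highest at 0.88 and Cldn4 lowest at -0.59; on the right the 4 members that passed all lie below 0.

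Against feeder cells, iPSC on feeder cells gave 11 members higher and 7 lower of 19, where 80.8% of all genes differed (39.1% higher and 41.7% lower). Arrays did not overlap for 18 of them, against 86.9% of all genes. This comparison shares its feeder arrays with that of feeder-free iPSC, so the values are set side by side only. Cdh13 read -2.44 in place of -3.32, Cdh3 2.33 in place of 2.90 and Gja4 0.41 (adjusted p = 0.00801) in place of 0.89. The mean on-feeder level of Gja4 lay below the lowest detected signal of both feeder arrays, so its difference is not resolved. Cdh6 read 0.32 (adjusted p = 0.0291), was not detected in either group and was not called without either feeder array or on-feeder array 2 (adjusted p from 0.0889 to 0.0981). Gjc1 read 0.77 and was not called without feeder array 1 (0.66, adjusted p = 0.0619).

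Partners of the members were taken from lists chosen with earlier results of these data known. Of 15 adherens junction partners, which link cadherins to actin or act beside them, 10 were higher and 1 lower in feeder-free iPSC relative to feeder cells, 73.3% against 81.9% of all genes, with a median of 0.51. Beta-catenin, Ctnnb1, which binds the cadherin tail, was 1.69 higher, and Plekha7, which ties cadherin complexes to microtubules, was at least 1.63-fold higher. On feeder cells relative to feeder-free iPSC 3 of the 15 were lower and 0 higher, 20.0% against 18.5% of all genes, with a median of -0.06. These were plakoglobin, Jup (-0.84, SE 0.13, adjusted p = 0.000716), and the nectin genes Nectin1 (-0.60) and Nectin2 (-0.43). A dimmer kept probe of Jup read -0.16 (adjusted p = 0.363) and one of Nectin2 -0.29 (adjusted p = 0.166).

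Of 17 tight junction partners, 10 were higher and 3 lower in feeder-free iPSC relative to feeder cells, 76.5% against 81.9% of all genes, with a median of 0.54. The polarity kinase gene Prkcz was at least 7.39-fold higher, the adhesion molecule gene Jam2 was 2.99 higher and the polarity scaffold gene Pard3 at least 4.68-fold higher. A second kept probe read 1.57 for Prkcz, against 3.88 on the brighter one, and 0.48 for Pard3, against 2.79. On feeder cells relative to feeder-free 1 was higher (Magi1, 0.53) and 2 were lower (Esam, -0.65, and Prkcz, -0.44), which is 17.6%. The Magi1 and Prkcz calls ended without any of several single arrays (adjusted p up to 0.115 and 0.155), and a second kept probe read -0.04 for Magi1 and -0.08 for Prkcz. Esam, an endothelial adhesion molecule, also stands in the endothelial marker list.

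Desmosomes are built from desmosomal cadherins and plakophilins. Of 7 tested genes 5 were higher and 2 lower in feeder-free iPSC relative to feeder cells, where 40.8% of all genes were higher and 41.1% lower, with Pkp2 at 3.23 and Dsg2 at least 2.91-fold higher; the other 2 kept probes of Dsg2 read -0.79 and 0.74. On feeder cells relative to feeder-free Jup alone passed, 14.3% of the list. Of 4 other gap junction and pannexin genes 0 passed in either of these comparisons. Of 8 other cadherin superfamily genes 4 were higher and 1 lower in feeder-free iPSC relative to feeder cells, 62.5% against 81.9% of all genes, the lower being the protocadherin gene Pcdh19 (-2.42). On feeder cells relative to feeder-free Pcdh19 was higher (0.94, SE 0.13, adjusted p = 0.000462), and Celsr2 (-0.63) and Pcdh1 (-0.40) were lower. That is 3 of 8 in all, 37.5% against 18.5% of all genes.

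Against the mixtures Jup (-0.76), Nectin1 (-0.58), Esam (-0.51) and Celsr2 (-0.62) were lower, and Magi1 (0.63) and Pcdh19 (0.76, SE 0.11, adjusted p = 0.00194) were higher. Of 15 adherens and 17 tight junction partners this is 0 higher and 2 lower, and 1 higher and 1 lower. These are 13.3% and 11.8%, near the 11% of all genes that passed.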

How the data were processed

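RNA was measured on 8 arrays, and 3 further samples are in silico mixtures. The deposited table gives non-normalized bead intensity per probe, with a detection score that rises with the signal, headed as a p-value per the file headers and read as 1 minus it. Limma was used, per the submitters' processing notes, and its version is not given in the sources used here. Of 46632 entries 5 had no probe ID (0.498% of the signal of feeder array 1) and were left out.

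Each deposited feeder-free intensity column is an average of the 3 feeder-free arrays pooled with feeder signal (91% and 9%, or 92% and 8%). Single feeder-free arrays were therefore recovered from each mixture as (mixture minus 8% of the feeder mean) over 92%. Their mean, pooled in these shares, gave back the deposited columns to within 0.0471 signal units, which checks the mean and not each array. Spearman correlation with the array's own detection score was 0.9965 to 0.9978 for recovered arrays and 0.9684 to 0.9714 for deposited columns. A second deposited table of normalized intensity was not used: its feeder columns matched (r 0.9969 and 0.9973), the other 9 did not (-0.0294 to -0.0265).

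Background correction used normexp from detection p (limma 3.58.1, R 4.3.3, offset 16). Signals were then quantile normalized, put on the log2 scale and tested with lmFit and eBayes, two-sided, Benjamini-Hochberg over 10058 genes, threshold 0.05. A probe was kept (18144 in all) if some group had scores over 0.95 on all of its arrays. The 8 arrays shared 1 fit (5 residual degrees of freedom, prior 7.03). Rebuilt mixtures and on-feeder arrays had their own (4, prior 6.50). Gene names came from GEO's platform annotation: 29972 probes had 1 symbol, 10 several and 16645 none.

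"At least" folds apply where the dimmer group was not detected on any array, its signal being raised to the lowest detected level per array. Members and lists were chosen with earlier results of these data known. Every tested member is named, with every array's value for those called between iPSC cultures or against the mixtures, those at least 2 log2 units from feeder cells, and Cdh1, Cdh2, Gja1 and Gjc1. Signals of Cldn4 and of Cdh13 and Cdh26 were also raised to the lowest detected level, a check added after seeing the data. The fit was tested on simulated data. Python 3.11.15, pandas 2.3.3, numpy 2.4.6, scipy 1.17.1 and matplotlib 3.10.9 were used. On arrays, depth is signal over background: the median signal of detected over undetected probes was 2.56 to 3.2, and the number of arrays limits the precision. Alternatives changed the normalization, background correction, filter, choice of probe, arrays in the fit and replicate block, and left out each array in turn.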

Additional observations from a re-analysis of the deposited data

How the results depend on the processing

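Scaling set the balance against feeder cells. With median scaling, the median of all genes was 0.28 for feeder-free minus feeder and 0.27 for on-feeder minus feeder, and with median scaling over kept probes, chosen after seeing the data, -0.39 and -0.44, against -0.01 and -0.05. Members then split 11 higher and 4 lower, and 7 and 7, for feeder-free minus feeder, and 9 and 3, and 6 and 8, for on-feeder minus feeder; all genes split 4208 and 2368, and 2799 and 5193, for feeder-free minus feeder against 4103 and 4130. Reversed values were, for feeder-free minus feeder, Cdh6 at -0.051 (kept-probe scaling), Cldn23 at 0.058 and Nectin1 at 0.68 (median scaling), and, for on-feeder minus feeder, Cdh15 at -0.0698, Cdh6 at -0.44, Gja4 at -0.24, Celsr2 at -0.0928 and Nectin2 at -0.37 (kept-probe scaling), with Nectin1 at 0.076 and Panx1 at 0.39 (median scaling). The cause was not tested. With a score over 0.99, 11 members were tested, and 6 were higher and 5 lower in each comparison with feeder cells. Without the filter 53 were tested. Then 12 were higher and 13 lower for feeder-free minus feeder, and 13 higher and 14 lower for on-feeder minus feeder. Testing every kept probe gave 14531 and 14409 calls.

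For on-feeder minus feeder-free, median scaling left 0 members lower and 399 genes called (309 higher and 90 lower, against 1009 and 851), ending the calls of Cdh3, Cldn4 and Gja4 at differences of -0.51, -0.55 and -0.50 (adjusted p = 0.203, 0.217 and 0.212); 3311 genes had an unadjusted p under 0.05 by limma in the main analysis. Cdh13 passed under every alternative run. For on-feeder minus mixture, median scaling left 0 members lower and 110 genes called. No background correction, no filter and kept-probe scaling each left 2 lower. Using the deposited mixture columns gave the same values as no background correction and is not a separate check. Testing every kept probe added 1 higher, a Cdh2 probe. Leaving out 1 array gave 1156 to 2202 genes for on-feeder minus feeder-free (1172 and 1156 without feeder-free arrays 2 and 3, 1219 and 1170 without on-feeder arrays 1 and 3), with 1 to 2 members higher and 2 to 4 lower. It gave 407 to 1544 genes for on-feeder minus mixture (407 and 465 without feeder-free arrays 2 and 3, 569 and 540 without on-feeder arrays 1 and 3), with 0 members higher and 0 to 5 lower. It gave 7798 to 8373 genes, 10 to 11 members higher and 7 to 8 lower for feeder-free minus feeder, and 7699 to 8192, 9 to 11 and 7 to 8 for on-feeder minus feeder.

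Replicate numbers shared by the iPSC cultures did not pair them: deviations of same-numbered arrays correlated at 0.0252, 0.1642 and -0.1982. With the replicate block 1735 genes were called for on-feeder minus feeder-free, 8053 for feeder-free minus feeder, 7987 for on-feeder minus feeder and 797 for on-feeder minus mixture. The block ended the calls of Cdh6 for on-feeder minus feeder (0.31, adjusted p = 0.0528) and Cdh3 for on-feeder minus mixture (-0.43, adjusted p = 0.0663).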
